A study of Mus musculus with 6 samples.

Results

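The circadian clock genes described here are Per1, Per2, Per3, Dbp, Nr1d1, Nr1d2, Arntl, Bhlhe41, Ciart and Tef, 10 of the 35523 genes to which the quantified transcripts were assigned. They were chosen by their symbols in the GENCODE M21 annotation of the mouse genome (GRCm38), and the estimated read counts of each gene's transcripts were summed. All 10 had enough reads to be tested for a genotype difference. RNA-Seq of the whole forebrain at postnatal day 20 (P20) was available for 3 Slc13a4+/- mice (Het_1024, Het_1025 and Het_1027, genotype label Nas2Del +/- Het) and 3 wild-type mice (WT_1016, WT_1018 and WT_1026), named here by their genotype and animal number. Slc13a4 encodes a sodium-coupled sulfate transporter, and the study asked which forebrain transcripts differ when 1 of its alleles is absent. Both groups were on a C57BL/6 background and received no treatment that the sources name. Slc13a4+/- males had been mated with wild-type females, and the controls were wild-type littermates. The allele is lost in the whole animal rather than in a chosen cell type, and each library holds RNA of 1 forebrain.

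The mammalian clock is a feedback loop of transcription that turns over about once a day in nearly every cell. The proteins BMAL1 (encoded by Arntl) and CLOCK bind E-boxes and switch on the Per and Cry genes, whose products return to the nucleus and block that activation. The same E-boxes drive Nr1d1 and Nr1d2, whose REV-ERB proteins repress Arntl, and they drive Dbp and Tef, transcription factors that bind D-boxes and pass the rhythm on to output genes. Arntl RNA therefore peaks in opposition to Dbp and the Per genes in most tissues, and forebrain samples taken at different hours carry different levels of these RNAs. The sources used here name neither the hour at which each mouse was killed nor the lighting schedule, so the part of collection time in any difference between mice could not be tested directly.

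The promoters were searched for elements through which this loop acts. Windows from 250 bases before to 50 bases after a RefSeq start (GRCm38.p6) were found for 9 of the 10 genes, 12 windows in all. Per2 had no entry. The E-box CACGTG was searched on both strands and was present in 5 of the 12 windows, those of 4 genes, against 7.15% of all 32851 mouse windows. Ciart held 3 copies, which began 116, 58 and 44 bases before the start. Per1 held 1 copy 166 bases before the start of its first window, Bhlhe41 held 1 copy 153 bases before its start, and each of the 2 Tef windows held 1 copy. The E-box variant CACGTT, in 4.68% of all windows, was found in Nr1d1, on the minus strand of the gene. Per3 held 2 copies of the D-box TTATGTAA, 205 and 158 bases before the start, an element in 0.938% of all windows. The ROR response element, to which the REV-ERB and ROR receptors bind, was found in 0.384% of all windows and among these genes in Arntl, as AAAGTAGGTCA at chr7:113207537-113207547 on the plus strand. It begins at base 27 after the RefSeq start of its window. The D-box form TTACGTAA (0.119% of all windows) and the cAMP response element TGACGTCA (1.79%) matched no window of the 9 genes. The windows of Dbp and Nr1d2 held none of these motifs, and sequence outside the windows was not searched. None of these motifs overlapped another in the 9 genes. A match is a description of letters and not evidence of binding. The stretches before the start that hold matches are shown for 5 genes, 5′ to 3′ on the strand of the gene and ending before the first annotated exon base. Capitals mark the E-box in Ciart (chr3:95882252-95882478, minus strand), Per1 (chr11:69098699-69098947, plus strand) and Tef (chr15:81811164-81811413, plus strand). In Per3 (chr4:151044666-151044915, minus strand) capitals mark the D-box, and in Nr1d1 (chr11:98775378-98775627, minus strand) the E-box variant.
Ciart: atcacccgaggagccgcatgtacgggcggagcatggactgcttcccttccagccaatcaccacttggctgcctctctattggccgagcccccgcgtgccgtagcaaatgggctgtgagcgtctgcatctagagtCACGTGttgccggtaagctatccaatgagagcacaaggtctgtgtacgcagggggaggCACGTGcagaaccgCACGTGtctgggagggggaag
Per1: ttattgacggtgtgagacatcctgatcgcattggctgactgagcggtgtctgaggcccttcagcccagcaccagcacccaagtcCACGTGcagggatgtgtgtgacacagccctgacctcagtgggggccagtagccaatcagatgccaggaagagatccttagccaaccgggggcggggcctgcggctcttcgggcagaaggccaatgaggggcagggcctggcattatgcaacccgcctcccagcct
Tef: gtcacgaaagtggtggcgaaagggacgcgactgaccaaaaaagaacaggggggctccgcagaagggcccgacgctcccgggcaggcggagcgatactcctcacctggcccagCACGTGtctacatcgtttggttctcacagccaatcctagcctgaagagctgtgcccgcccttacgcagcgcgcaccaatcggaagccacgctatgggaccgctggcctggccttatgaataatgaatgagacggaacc
Per3: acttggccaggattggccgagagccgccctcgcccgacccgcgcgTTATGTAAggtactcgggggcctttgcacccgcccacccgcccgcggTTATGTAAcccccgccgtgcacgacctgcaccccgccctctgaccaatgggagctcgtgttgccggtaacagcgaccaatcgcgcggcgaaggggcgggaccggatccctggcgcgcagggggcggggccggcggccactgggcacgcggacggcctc
Nr1d1: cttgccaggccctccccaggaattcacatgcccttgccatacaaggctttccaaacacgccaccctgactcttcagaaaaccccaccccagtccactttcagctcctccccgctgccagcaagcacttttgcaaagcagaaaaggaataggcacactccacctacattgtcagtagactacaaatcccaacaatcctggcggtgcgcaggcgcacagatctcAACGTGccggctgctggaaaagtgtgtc

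The libraries held between 60340337 and 80410582 estimated counts. Slc13a4, the targeted gene, lay at 5.60, 6.57 and 5.41 CPM (counts scaled to the size of the library) in the Slc13a4+/- mice and at 10.4, 9.36 and 8.23 CPM in the wild-type mice, so the labels held in all 6. Its log2 fold change of -0.67 (SE 0.11) had an edgeR adjusted p of 0.50 and a DESeq2 adjusted p of 0.0024. WT_1026 stood apart from the other wild-type mice. The chi-square of its counts per gene was 33.8 against WT_1018 and 39.4 against WT_1016, whereas those 2 mice differed from each other by 7.004. WT_1016 and WT_1018 have earlier animal numbers than the other 4 mice, which run from Het_1024 to Het_1027. Ddx3y, a Y-linked gene, was at 105 CPM in WT_1016 and at no more than 0.033 CPM in any other library. By this gene WT_1016 was the only male, so sex was not balanced between the genotypes. Forebrain genes identified the tissue, with a summed level of 228 to 266 CPM over the 8 forebrain markers, highest in WT_1026, against 2.34 to 4.82 CPM over 8 cerebellar and hindbrain markers. Markers of the suprachiasmatic nucleus, the small hypothalamic seat of the master clock, were also counted. The 8 markers summed to 53.8 to 60.9 CPM in Slc13a4+/- and 52.5 to 62.0 CPM in wild-type mice, most of it Vip (34.3 to 42.6 CPM), a peptide that cortical interneurons also make. Nms, a peptide of the suprachiasmatic nucleus, did not exceed 0.090 CPM in any mouse.

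Relative to transcript length, the clock genes spanned a wide range of abundance. On the TPM scale, which divides by length, Tef was the most abundant, at 209 ± 6.31 in Slc13a4+/- and 197 ± 9.33 in wild-type mice (mean ± SD, n = 3 each), and its lowest library (189 TPM) stood far above every other member. Dbp (69.4 to 84.3 TPM over the 6 mice) and Nr1d2 (72.3 to 79.5 TPM) came next, with ranges that overlapped. Per1 followed at 30.1 to 47.6 TPM and overlapped Arntl, at 27.1 to 31.3 TPM. Ciart (22.5 to 25.2 TPM) and Nr1d1 (21.6 to 24.9 TPM) were not separated from each other. Per3 (11.02 to 16.5 TPM), Per2 (11.7 to 13.7 TPM) and Bhlhe41 (10.7 to 12.4 TPM) formed the lowest group and overlapped throughout.

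No member passed the test between genotypes. Levels are given from here as CPM after scaling by the trimmed mean of M-values (TMM), and a gene was called at an adjusted p under 0.1. By edgeR's quasi-likelihood test 0 of the 10 genes were called, with adjusted p between 0.50 and 0.95, against 0.00585% of the 17096 genes tested. DESeq2 with transcript-length offsets, the test of the study, also called 0 of 10 (adjusted p 0.32 to 0.996), where it called 0.502% of the genes it tested. Slc13a4 itself was not called by edgeR (adjusted p = 0.50) and was called by DESeq2 (adjusted p = 0.0024). A count of 0 by edgeR therefore does not show that the members were unchanged. An unadjusted p under 0.05 was reached by 4 of the 10 in edgeR, against 9.15% of all genes. Of these, Per3 was higher in Slc13a4+/- mice (4.98% of all genes were higher at this level), and Per2, Nr1d1 and Arntl were lower (4.17% of all genes). DESeq2 gave 4 of 10 as well (Per1, Per2, Per3 and Arntl), against 6.9% of all genes. The levels of the genotypes did not overlap for 3 members, against 15.0% of all genes. Dbp was above in every Slc13a4+/- mouse, as were 7.26% of all genes, and Arntl and Per2 were below, as were 7.7%. The median log2 fold change over the 10 genes was -0.028, and that over all genes -0.0045. In forebrain RNA as a whole, fewer cells of a type and less RNA per cell cannot be told apart.

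**Figure D1:**
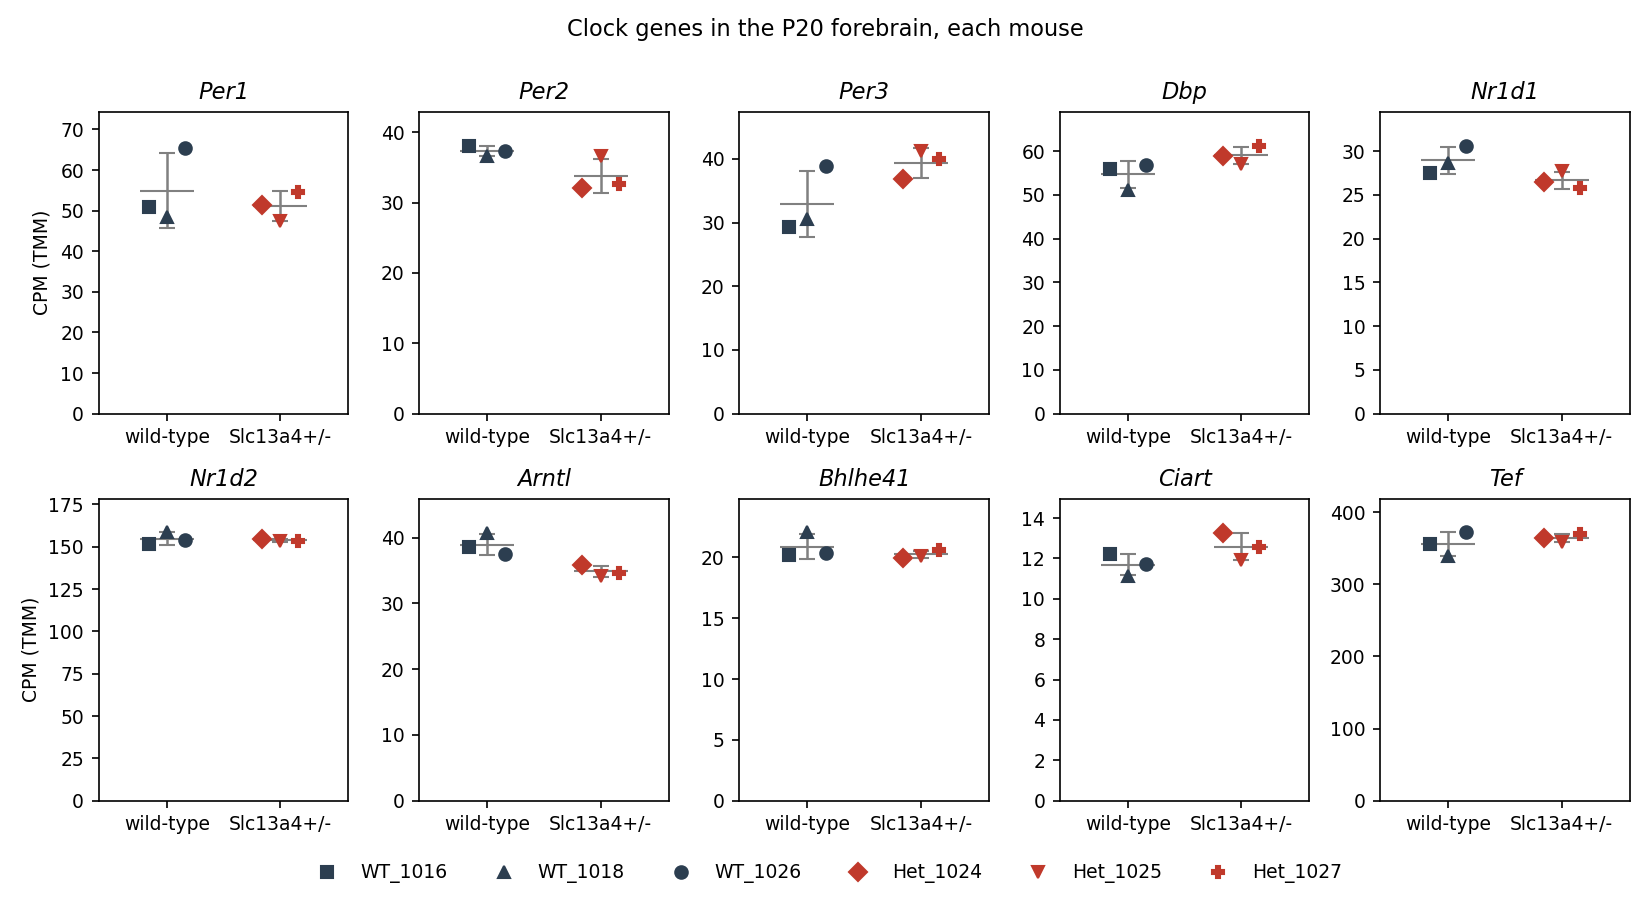
CPM (TMM-scaled, linear axes from 0) of the 10 clock genes in each of the 6 mice; symbols name the animal, horizontal lines the group mean and bars the SD (n = 3). Arntl and Per2 were lower and Dbp higher in every Slc13a4+/- mouse than in every wild-type mouse, and WT_1026 stood above the other wild-type mice in Per1 and Per3.

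Arntl, on chromosome 7 (113207465 to 113314126, plus strand), encodes BMAL1, the activating partner of CLOCK. It lay at 35.8, 34.2 and 34.6 CPM in Het_1024, Het_1025 and Het_1027 and at 38.6, 40.7 and 37.5 CPM in WT_1016, WT_1018 and WT_1026. Every Slc13a4+/- mouse was therefore below every wild-type mouse, the closest pair being separated by less than 2 CPM. The log2 fold change was -0.16 (SE 0.042), with the smallest p of the 10 genes (edgeR unadjusted p = 0.0049, adjusted p = 0.50). Its 20-exon transcript Arntl-201 carried 82.5 to 90.1% of its counts, and Gm45355 overlaps it on the opposite strand. With animal number (WT_1016 and WT_1018 against the rest) as a covariate, the log2 fold change was -0.10.

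The 3 Per genes encode PERIOD proteins, the repressors that close the loop, and they did not move as a block. Per1, on chromosome 11 (69095217 to 69109960, plus strand), is also an immediate early target of light, activity and glucocorticoids. It lay at 51.3, 47.5 and 54.7 CPM in Slc13a4+/- and at 50.9, 48.4 and 65.5 CPM in wild-type mice. The groups overlapped, and WT_1026 was well above the other 5 mice. Between genotypes it differed by -0.10 on the log2 scale (SE 0.11; edgeR adjusted p = 0.79). Without WT_1026 it was 0.04. With animal number as a covariate it was -0.36, a value for which WT_1026 was the only wild-type mouse compared. The summed level of 14 immediate early genes followed the same mice, at 818, 671 and 907 CPM in Slc13a4+/- and 744, 650 and 970 CPM in wild-type mice, again highest in WT_1026 and next in Het_1027, and its part in the Per1 result was not tested.

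Per2 is on chromosome 1 (91415982 to 91459324, minus strand). It lay at 32.1, 36.6 and 32.7 CPM in Slc13a4+/- and at 38.0, 36.6 and 37.3 CPM in wild-type mice. Het_1025 came within 0.1 CPM of WT_1018, so that the groups touched without overlapping. The log2 fold change was -0.14 (SE 0.053, unadjusted p = 0.024, adjusted p = 0.52), and all reads were assigned to the 23-exon transcript Per2-201.

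Per3, on chromosome 4 (151003652 to 151044665, minus strand), is a PERIOD gene that is dispensable for rhythm itself and swings strongly in most tissues. It lay at 36.8, 41.3 and 40.0 CPM in Slc13a4+/- and at 29.3, 30.5 and 38.8 CPM in wild-type mice. WT_1016 and WT_1018 were the low mice, and WT_1026 sat among the Slc13a4+/- mice. This was the largest fold change of the 10 genes by edgeR, 0.26 on the log2 scale (SE 0.099, unadjusted p = 0.031, adjusted p = 0.52). When WT_1026 was left out, the value became 0.39 (SE 0.055; edgeR adjusted p = 0.059) in a fit that called 1.29% of all genes. DESeq2 without that mouse gave 0.41 and an adjusted p of 1.1e-04, in a fit that called 6.66% of the genes it tested. With animal number as a covariate the value was 0.02, so the difference rested on WT_1016 and WT_1018, and genotype and animal number cannot be told apart for those 2. By Ddx3y, WT_1016 but not WT_1018 was male, and the part of sex was not tested. Annotated retained-intron transcripts held 8.11, 13.0 and 9.37% of Per3 counts in Slc13a4+/- and 7.39, 9.23 and 6.91% in wild-type mice, with overlap. Camta1 overlaps Per3 on the same strand.

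Other repressors of the loop are the REV-ERB, DEC2 and CHRONO genes. Nr1d1, on chromosome 11 (98767932 to 98775333, minus strand), encodes REV-ERB alpha and lay at 26.5, 27.7 and 25.8 CPM in Slc13a4+/- and at 27.5, 28.7 and 30.6 CPM in wild-type mice. The groups overlapped at 1 pair, Het_1025 and WT_1016, and the log2 fold change was -0.12 (SE 0.049, unadjusted p = 0.042, adjusted p = 0.54), which became -0.20 with animal number as a covariate. Thra, which encodes a thyroid hormone receptor, overlaps Nr1d1 on the opposite strand. Nr1d2, on chromosome 14 (18204054 to 18239127, minus strand), encodes REV-ERB beta. It lay at 154, 153 and 153 CPM in Slc13a4+/- and at 151, 159 and 154 CPM in wild-type mice, a log2 fold change of -0.01 (SE 0.036). Its highest and lowest mice differed by 1.05-fold, the least of the 10 genes.

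Bhlhe41 encodes DEC2, which competes with BMAL1 and CLOCK for E-boxes, and lies on chromosome 6 (145858243 to 145865558, minus strand). Its levels were 20.0, 20.1 and 20.6 CPM in Slc13a4+/- and 20.2, 22.1 and 20.4 CPM in wild-type mice. WT_1018 was above the other 5 mice, which were within 1 CPM of each other, and the genotypes differed by -0.04 on the log2 scale (SE 0.047; edgeR adjusted p = 0.79). Ciart, on chromosome 3 (95878503 to 95882251, minus strand), encodes CHRONO, another repressor of BMAL1 and CLOCK. It was the lowest member in CPM, at 13.3, 11.9 and 12.6 in Slc13a4+/- and 12.2, 11.1 and 11.7 in wild-type mice. These overlapped, with a log2 fold change of 0.11 (SE 0.062, adjusted p = 0.63).

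Dbp and Tef belong to the same family of D-box activators. Dbp, on chromosome 7 (45705088 to 45710203, plus strand), is the output gene best known for its steep daily swing. It lay at 58.8, 57.1 and 61.1 CPM in Slc13a4+/- and at 56.0, 51.1 and 56.9 CPM in wild-type mice. All Slc13a4+/- mice were above all wild-type mice, although Het_1025 exceeded WT_1026 by less than 1 CPM. The log2 fold change was 0.11 (SE 0.051, unadjusted p = 0.059, adjusted p = 0.56). It was 0.064 without WT_1018 and 0.053 with animal number as a covariate. Sphk2 overlaps Dbp on the opposite strand. The 1252-base transcript Dbp-203 was listed at 0 in Het_1027 and WT_1016 and carried 2.57 to 7.21% of Dbp counts elsewhere, whereas Dbp-201 carried 82.4 to 89.9% in every mouse.

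Tef, on chromosome 15 (81802421 to 81826863, plus strand), was the most abundant member on either scale, at 364, 359 and 369 CPM in Slc13a4+/- and at 357, 339 and 372 CPM in wild-type mice. The wild-type mice spanned the whole range, and the genotypes differed by 0.03 on the log2 scale (SE 0.043; edgeR adjusted p = 0.83). Transcripts from 2 start sites shared its reads almost equally. Tef-202, which starts at base 81802421, carried 45.7 to 49.2% of its counts, and Tef-201, which starts at base 81811414 directly after the promoter stretch shown above, carried 47.4 to 52.2%. Neither genotype favoured a start site, since the shares of Tef-201 were 50.7, 47.4 and 49.9% in Slc13a4+/- and 52.2, 49.8 and 49.8% in wild-type mice, with overlap.

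Per1 also had transcripts from several start sites. Per1-201, downstream of the E-box stretch shown above, carried 77.3 to 81.7% of its counts, and Per1-202, which starts at base 69095217, carried 13.6 to 20.3%. The 496-base transcript Per1-204 carried 2.43 to 3.45% in Slc13a4+/- and 3.95 to 4.48% in wild-type mice, without overlap. It held only 79.7 to 224 estimated counts in a mouse. At the level of genes 15.0% did not overlap, and the share of all transcripts that separate in this way was not computed. On the TPM scale the short transcript weighs more, and the average Per1 transcript length was 3062, 3311 and 3067 bases in Slc13a4+/- and 2951, 2826 and 2859 bases in wild-type mice. With length offsets the Per1 log2 fold change was -0.23 (SE 0.11, DESeq2 adjusted p = 0.68) in place of -0.10.

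**Figure D2:**
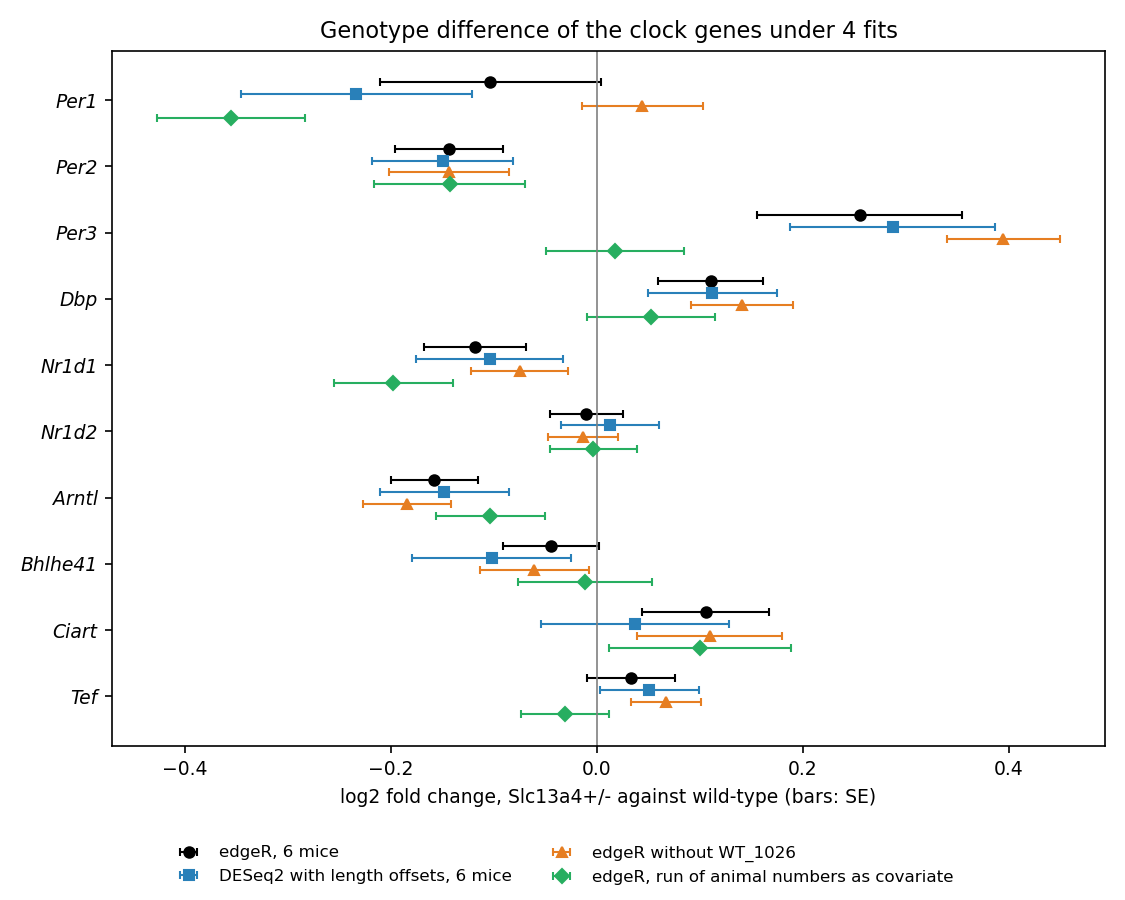
Log2 fold change (Slc13a4+/- against wild-type) of the 10 genes under 4 fits, with bars for the SE: edgeR and DESeq2 with length offsets over 6 mice, edgeR without WT_1026, and edgeR with animal number as a covariate. Per3 ranged from 0.02 to 0.39 and Per1 from -0.36 to 0.04, whereas Per2 stayed near -0.14 in all 4. The fit with the covariate compares the Slc13a4+/- mice with WT_1026 alone.

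The phase pattern was read in each mouse as the mean log2 CPM of Per1, Per2 and Per3 minus the log2 CPM of Arntl. This Per to Arntl log2 ratio was 0.13, 0.28 and 0.26 in Het_1024, Het_1025 and Het_1027 and -0.01, -0.11 and 0.28 in WT_1016, WT_1018 and WT_1026. WT_1016 and WT_1018 were the low mice, and WT_1026 was as high as the Slc13a4+/- mice. The group means were 0.23 ± 0.079 in Slc13a4+/- and 0.057 ± 0.20 in wild-type mice (mean ± SD, n = 3 each), a difference of 0.17 (exact permutation test, two-sided, p = 0.4, where 3 against 3 mice cannot go below 0.1). Without WT_1018 the difference was 0.087, and without WT_1026 it was 0.28. The low values belonged to the mice of the earlier animal numbers, so the ratio, the animal number and a possible difference in collection time cannot be told apart here.

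The 3 Per genes contributed unequally to that ratio. The difference between genotypes was 0.43 for Per3 to Arntl (exact permutation p = 0.2), 0.07 for Per1 to Arntl (exact permutation p = 0.8) and 0.01 for Per2 to Arntl (exact permutation p = 1). The Dbp to Arntl log2 ratio was 0.72, 0.74 and 0.82 in Slc13a4+/- and 0.54, 0.33 and 0.60 in wild-type mice. All Slc13a4+/- mice were above all wild-type mice, a difference of 0.27 (exact permutation p = 0.1, 9 such ratios computed). That is the smallest p that 3 against 3 mice allow. It was fixed in advance, since every Slc13a4+/- mouse was above in Dbp and below in Arntl, and it adds nothing to those levels. The ratios of Ciart (0.26), Tef (0.19), Nr1d2 (0.15) and Bhlhe41 (0.11) to Arntl also separated the genotypes, and they share the same Arntl values. Taken alone these genes overlapped between genotypes, with log2 fold changes of 0.11, 0.03, -0.01 and -0.04 in that order. The separation of their ratios therefore draws on Arntl, which did not overlap. The share of all genes whose ratio to Arntl separates was not computed.

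Across the 6 mice, Per3 and Dbp were low where Arntl was high. Per3 had a Pearson r with Arntl of -0.86 (exact permutation p = 0.029, adjusted over 9 relations 0.13) and a Spearman rho of -0.89 (exact permutation p = 0.033, adjusted 0.26). For Dbp, r was -0.85 (exact permutation p = 0.022, adjusted 0.13) and rho was -0.83 (exact permutation p = 0.058, adjusted 0.26). Without Het_1025 and WT_1018, the mice farthest from the median of Arntl, r was -0.76 for Per3 and -0.99 for Dbp over the remaining 4. Per2 went the other way, with an r of 0.54 (exact permutation p = 0.27, adjusted 0.34; rho 0.60, exact permutation p = 0.24, adjusted 0.53), which was 0.92 without those mice. Per1 had values near 0 (r = -0.01, exact permutation p = 0.99, adjusted 0.99; rho 0.03, exact permutation p = 1, adjusted 1). The other 5 had r of 0.52 (Nr1d1), 0.52 (Nr1d2), 0.68 (Bhlhe41), -0.62 (Ciart) and -0.68 (Tef), with exact permutation p between 0.11 and 0.30 and adjusted p between 0.29 and 0.34. Their rho lay between -0.49 and 0.49, with exact permutation p between 0.36 and 0.56 and adjusted p between 0.53 and 0.63. Without the same mice r was 0.65 for Nr1d1, -0.53 for Nr1d2, -0.33 for Bhlhe41, -0.59 for Ciart and -0.51 for Tef. The exact permutation p of all 9 values over 4 mice lay between 0.042 and 0.96, adjusted 0.375 to 0.96. No relation had an adjusted p under 0.05, the threshold used for correlations. The smallest came on other scales, for Per3, Dbp and Tef alike. On gene TPM their adjusted p was 0.079 (exact permutation; r = -0.86, -0.88 and -0.88), and on CPM without TMM factors it was 0.083 (exact permutation; r = -0.92, -0.85 and -0.86). On gene TPM without Het_1025 and WT_1018, r was -0.81, -0.96 and -0.76. On CPM without TMM factors the mice farthest from the median were WT_1016 and WT_1018. Without them, r was -0.86 for Per3, -0.55 for Dbp and -0.13 for Tef over the 4 mice of the later animal numbers. The genotypes did not overlap in Arntl, so a relation to Arntl and a difference between genotypes cannot be told apart. No correlation was computed within a genotype (3 mice), and on the main scale none within the 4 mice of the later animal numbers.

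**Figure D3:**
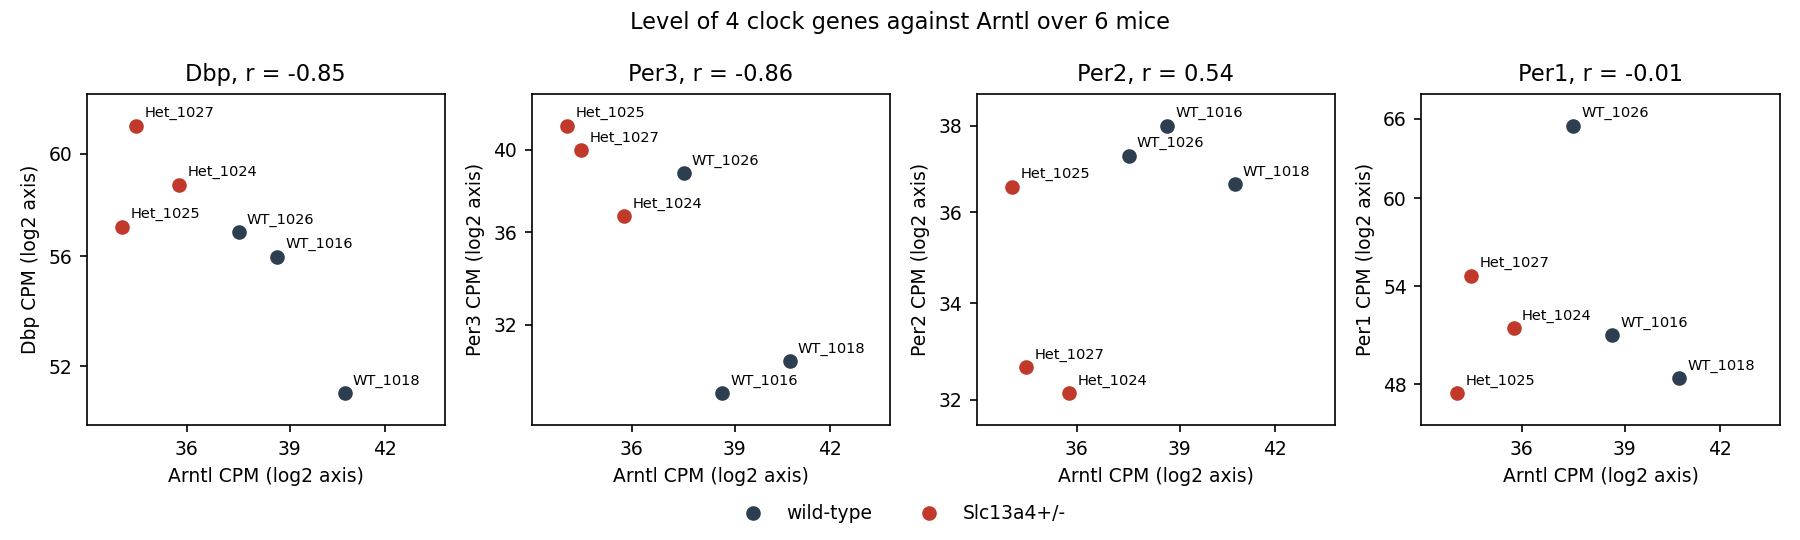
CPM of Dbp, Per3, Per2 and Per1 against CPM of Arntl in each of the 6 mice (log2 axes, labels name the mice). Dbp (r = -0.85) and Per3 (r = -0.86) were low in WT_1018, where Arntl was highest, whereas Per2 (r = 0.54) and Per1 (r = -0.01) did not follow that order.

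Read mouse by mouse, WT_1018 stood at the end of the order most often. It had the highest Arntl, Nr1d2 and Bhlhe41 and the lowest Dbp, Ciart and Tef of the 6 mice. Its deviation from the mean log2 CPM of all mice was 0.14 for Arntl, -0.15 for Dbp, -0.12 for Ciart and -0.23 for Per3, but 0.05 for Per2. WT_1026 had the highest Per1 (0.31 above the mean on the log2 scale), Nr1d1 and Tef and was lowest in no member. The remaining 4 mice were each the highest in 1 member and the lowest in 1 or 2.

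The spread over mice was small in absolute terms and uneven among the members. The highest and lowest mice differed by 1.41-fold in Per3 and by 1.38-fold in Per1, and by no more than 1.198-fold, that of Dbp, in the other 8. The range of log2 CPM had a median of 0.25 over the 10 genes, against 0.23 over 17017 genes and 0.16 over the 10211 genes with a mean of 10 CPM or more. Among those 10211 genes, 97.6% had a smaller range than Per3 and 97.2% a smaller range than Per1. The shares for Dbp, Ciart, Arntl, Nr1d1 and Per2 were between 79.7 and 83.3%, and those for Bhlhe41, Tef and Nr1d2 were 39.5, 34.1 and 4.89%. Dbp was thus less variable over these mice than Per1 or Per3.

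**Figure D4:**
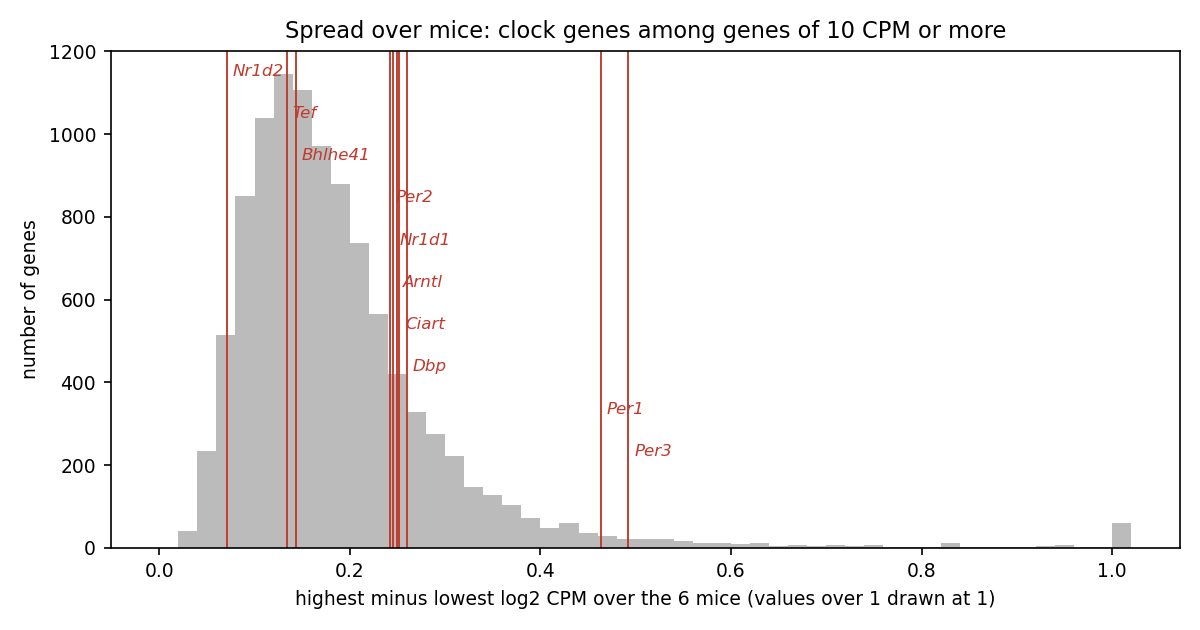
Histogram of the range over the 6 mice (highest minus lowest log2 CPM, values over 1 drawn at 1) for the 10211 genes with a mean of 10 CPM or more, with a line for each clock gene. Per1 and Per3 lay in the upper tail, Nr1d2 in the lower.

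The other 21 genes of the clock were not called either. All 21 were tested. By edgeR 0 passed, against 0.00585% of all genes tested, and by DESeq2 with length offsets 0 passed, against 0.502%. At such low shares a count of 0 does not set these 21 genes apart from others. Their log2 fold changes were positive for 10 genes and negative for 11, and the median was -0.0017. Arntl2, a paralogue of Arntl, was the only one with an unadjusted edgeR p under 0.05, against 9.15% of all genes. DESeq2 gave such a p for Arntl2 and Usp2, against 6.9% of all genes. The genotypes did not overlap for 3 of the 21 (Arntl2, Cry1 and Csnk1d), against 15.0% of all genes. Arntl2 lay at 4.84, 5.83 and 4.73 CPM in Slc13a4+/- and at 3.91, 4.09 and 3.62 CPM in wild-type mice, without overlap, and its log2 fold change was 0.41 (SE 0.10, unadjusted p = 0.0038, adjusted p = 0.50). That direction was opposite to the value of Arntl. Cry1, a cryptochrome that represses with the PERIOD proteins, was at 20.9 to 22.0 CPM in Slc13a4+/- and 22.2 to 23.5 CPM in wild-type mice, a log2 fold change of -0.08 (SE 0.042, adjusted p = 0.59). Csnk1d, the casein kinase that marks PERIOD proteins for breakdown, gave -0.07 (SE 0.042, adjusted p = 0.64). Rorb is a nuclear receptor that binds ROR response elements. Without WT_1026 it was called by edgeR (0.22, edgeR adjusted p = 0.092), in a fit that called 1.29% of all genes. It was lower in WT_1016 and WT_1018 (69.3 and 67.9 CPM) than in the other 4 mice (77.9 to 90.0 CPM). That order was also seen in Per3. Rorb was named after its values had been seen.

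The level of Dbp over the 6 mice served to find genes of like pattern, as a description without a test. Within the clock, r with Dbp was highest for Tef (0.88), Timeless (0.86), Cipc (0.84) and Ciart (0.80), and Arntl (-0.85) and Bhlhe41 (-0.75) were among the lowest. Per3 had an r of 0.68, Per1 of 0.32 and Per2 of -0.63. Outside the clock members, 3686 genes had a mean of at least 1 CPM and a range of at least 0.3 on the log2 scale, of which 42 had an r above 0.9 and 51 below -0.9. The most like were Cbx2 (0.992), a Polycomb protein, Tmem88 (0.991), Gen1 (0.985), a nuclease that resolves DNA junctions, B430305J03Rik (0.982) and Arhgap11a (0.978). The most opposite were the processed pseudogene Gm9762 (-0.989), Slc17a6 (-0.986), a vesicular glutamate transporter, Runx1 (-0.982), Calb2 (-0.964), which encodes calretinin, and Tal1 (-0.964). The 6 points behind each value share their libraries, their depth and the split of the mice into genotypes.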

How the data were processed

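Whole forebrains were frozen, and total RNA was depleted of rRNA, made into stranded libraries and sequenced as paired reads on a NextSeq500. The authors quantified transcripts with Salmon 1.2.0 with GC bias correction, and deposited for each mouse the estimated counts, the TPM and the effective length of 117135 transcripts. No source used here gives the strand setting or the transcript set of the Salmon index. The 1162 transcripts not found in GENCODE M21 (0.62 to 0.65% of counts) were left out, and the deposited estimated counts of the others were summed per gene and rounded. Deposited TPM was summed per gene to compare levels between genes.

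Genes were filtered with filterByExpr and tested with edgeR 4.0.16 (quasi-likelihood, TMM, R 4.3.3), with Benjamini-Hochberg adjustment over all genes tested and a threshold of 0.1. The study used a DESeq2 Wald test without covariates, which was run here as an alternative (DESeq2 1.42.0), with average transcript lengths computed from the deposited effective lengths and TPM, as was limma voom 3.58.1. Ratios and correlations used exact permutation tests over mice, two-sided. The fits were tested on simulated counts. The members, gene lists and tests were chosen with earlier results of these data known. Named genes were all members, of the other clock genes those with an unadjusted p under 0.05 and in any case the 4 with the smallest p, the 2 with the smallest p of each other list, the 5 most and 5 least correlated with Dbp, and Slc13a4. Of the genes so named, 2 are not reported here. Replicates are separate mice, and no source used here names their litters. No 2 libraries agreed within sampling noise.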

Additional observations from a re-analysis of the deposited data

How the results depend on the processing

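No paired analysis was possible because the genotypes share no replicate number. Of 230 alternative values of the members' fold changes, 212 kept direction and side of the threshold, 15 changed sign without a call and 3 passed the threshold. The alternatives of DESeq2 without each mouse and of main transcripts alone were chosen after seeing the data. Genes called over the whole table, 1 by edgeR, numbered 88 (DESeq2 with length offsets), 55 (DESeq2 without), 0 (edgeR with length offsets; unadjusted p under 0.05 in 1411 genes), 147 (no filter), 143 (animal number as covariate) and 28 (the 4 mice of later numbers alone), and between 1 and 223 by edgeR without 1 mouse, highest without WT_1026. DESeq2 called 97, 40, 46, 34, 68 and 718 without Het_1024, Het_1025, Het_1027, WT_1016, WT_1018 and WT_1026. Members called were 1 without WT_1026 (Per3, in either tool). The remaining value past the threshold was that of Per1 with the covariate, where WT_1026 was the only wild-type mouse compared. Other clock genes called without WT_1026 were 1 by edgeR (Rorb) and 2 by DESeq2 (Rorb and Usp2). These fits called 1.29% and 6.66% of the genes they tested. Over all fits without 1 mouse, the counts lay between 0 and 1 for members and 0 and 2 for the others. Changes of sign were 0.044 for Per1 without WT_1026 (lowest without 1 mouse by edgeR -0.19), 0.0058 for Bhlhe41 in the later numbers alone, and -0.0037 for Ciart (DESeq2 without Het_1024). Tef gave -0.0012 without WT_1018 (highest without 1 mouse 0.067), -0.031 with the covariate, -0.014 in the later numbers alone and -0.0047 by its main transcript. Nr1d2 gave 0.013 (DESeq2 with length offsets), 0.015 (edgeR with length offsets), 0.0086 (without WT_1018; lowest without 1 mouse -0.021) and 0.013 (later numbers alone), and by DESeq2 0.019, 0.020, 0.040 and 0.014 without Het_1024, Het_1027, WT_1018 and WT_1026. Correlations with Arntl changed sign for Per1 (0.26 on TPM, 0.041 without retained-intron transcripts, 0.11 without the 2 outermost mice), Nr1d2 (-0.32 on TPM, -0.53 without those mice) and Bhlhe41 (-0.33 without those mice). The causes were not tested. With 3 mice a genotype, no exact permutation test between genotypes can go below 0.1.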

Other observations

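Lists of genes chosen for stress, activity and temperature were examined beside the clock genes, because Per1 and several of its partners respond to such inputs. By edgeR no gene of any list was called, against 0.00585% of all genes tested. At an unadjusted p under 0.05, 4.17% of all genes tested were lower and 4.98% higher in Slc13a4+/- mice, and the counts below stand beside those shares. Of the 9 genes in the temperature list, 6 were lower and 2 higher at that level. The list holds chaperones, Hspa8 and Hspa5 among them, that were not chosen by a response to temperature in these mice. The 2 higher genes were Cirbp and Rbm3, cold-inducible RNA-binding proteins named after their values had been seen. The summed level of all 9 was 5558 to 5654 CPM in Slc13a4+/- and 5720 to 6129 CPM in wild-type mice. It did not overlap and was lower in Slc13a4+/- mice, as were 7.7% of all genes taken singly. Hspa8 made up 54.9% of the sum. The other 8 summed to 2509 to 2552 CPM in Slc13a4+/- and 2611 to 2785 CPM in wild-type mice, also without overlap, an alternative chosen after seeing the data. The smallest p belonged to Dnajb1 (log2 fold change -0.23, SE 0.055) and Hspa1a (-0.33, SE 0.085), both heat-inducible chaperones, with adjusted p of 0.50. Of 14 immediate early genes, Btg2 (0.39, SE 0.11) and Npas4 (0.29, SE 0.098) had positive values and 1 gene a negative value at that level, and the summed level overlapped between genotypes. Of 14 glucocorticoid-induced genes, 13 were tested and 2 were lower at that level, Cdkn1a (-0.23, SE 0.062) and Nfkbia (-0.20, SE 0.060), and the sum was 957 to 1034 CPM in Slc13a4+/- and 951 to 1032 CPM in wild-type mice.

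The summed levels of astrocyte, microglial and endothelial markers were lower in every Slc13a4+/- mouse than in every wild-type mouse, as were 7.7% of all genes taken singly, and they stayed so without the most abundant gene of each list, an alternative chosen after seeing the data. Of the 6 genes in each, 2 (Gfap and Aqp4), 2 (Aif1 and Cx3cr1) and 4 (led by Flt1 and Cldn5) were lower at an unadjusted p under 0.05, against the 4.17% of all genes. The astrocyte gene Aldh1l1 had the opposite sign (0.07, SE 0.043) and was above in every Slc13a4+/- mouse, as were 7.26% of all genes; it was named after its values had been seen. Of 6 choroid plexus markers, 2 were lower at that level, Ttr and Aqp1. Their sum did not overlap either, but Ttr made up 91.3% of it, and the other 5 summed to 34.1 to 40.1 CPM in Slc13a4+/- and 38.9 to 40.4 CPM in wild-type mice, with overlap. The 6 oligodendrocyte markers (2 lower, Mog and Mbp) overlapped in their sum, as did the 6 neuronal markers (0 at that level; smallest p in Nefl and Tubb3). No forebrain (Neurod6), suprachiasmatic (Lhx1, Six3), pineal (Tph1, Crx) or hindbrain marker (Barhl1, Cbln3) reached an unadjusted p of 0.05. Of 6 olfactory bulb markers, 1 was lower at that level (Doc2g, followed by Cdhr1). All 6 olfactory bulb values were negative, the median being -0.44 on the log2 scale. Their sum was 18.6, 22.8 and 26.4 CPM in Het_1024, Het_1025 and Het_1027. It was 21.5, 32.4 and 28.4 CPM in WT_1016, WT_1018 and WT_1026, so it overlapped between genotypes and was uneven between mice. The part of these differences in the levels of the clock genes was not tested.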
